A study of Mus musculus with 4 samples.

Results

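The Dlk1-Meg3 imprinted cluster on mouse chromosome 12 was followed through single-cell RNA sequencing of muscle satellite cells (MuSC, the muscle stem cells) and the cells sorted with them. Its 4 named genes are Dlk1, Meg3, Rian and Mirg, chosen by name. Dlk1, Meg3 and Mirg were counted under their own names, and Rian was not analysed here. The gene table held 8 genes from Dlk1 to Dio3, of 27998 genes in all, and all 8 are described. Each of 4 libraries came from the lower hindlimbs of 2 pooled mice of 1 strain. B10 was C57/Bl10ScsSn at 15 weeks of age, and mdx was C57BL/10ScSn-Dmdmdx at 11 weeks. DBA was DBA/2 at 13 weeks, and D2-mdx was D2.B10-Dmdmdx at 14 weeks. The mdx and D2-mdx mice carry the mdx allele, a point mutation in the dystrophin gene Dmd, in every cell, on a mild (B10) and a severe (DBA/2) background. The counts are of RNA 3′ ends away from that mutation, so they do not read the allele itself. Dmd counts were not used here to check the labels. Cells of all 4 libraries were sorted for α7-integrin and VCAM1 and against CD11b, Sca1, CD45 and CD31. With 1 library per strain there is no replicate and no test: intervals in the text are 95% exact intervals that cover counting error only, and strain, age and library cannot be told apart.

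Imprinted genes are read from 1 parental chromosome. In this cluster the protein-coding genes Dlk1, Rtl1 and Dio3 are expressed from the paternal chromosome, and the noncoding genes Meg3, Rian and Mirg from the maternal one, where they are thought to be transcribed as a long run in the same direction. That transcription carries many small nucleolar RNAs and one of the largest groups of microRNAs in the mouse, including those antisense to Rtl1. Dlk1 is a transmembrane relative of the Notch ligands with roles in muscle growth and regeneration, Meg3 (also called Gtl2) is a nuclear long noncoding RNA abundant in quiescent satellite cells, and Mirg is the host of the distal microRNAs. Rtl1 is a retrotransposon-derived gene important in placenta and fetal muscle, and Dio3 is the deiodinase that inactivates thyroid hormone.

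On GRCm38 (mm10) the counted genes lie in the order Dlk1 (chr12:109452823-109463336, plus strand), Meg3 (chr12:109541001-109571726, plus), Gm26906 (chr12:109568628-109571723, minus), Rtl1 (chr12:109589193-109600330, minus), Gm26945 (chr12:109640341-109642351, plus), B830012L14Rik (chr12:109695586-109702587, plus), Mirg (chr12:109729764-109749460, plus) and Dio3 (chr12:110279068-110281097, plus). Gm26906 lies antisense over the 3′ end of Meg3, and strand use in the counting is not given in the sources used here, so its UMIs are uncertain. Gm26945 lies inside the interval annotated as Rian (chr12:109603940-109661716, plus). It is given as a gene of its own and not as Rian. B830012L14Rik is a noncoding gene between Rian and Mirg.

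The Meg3 promoter is shown because Meg3 carries most of the UMIs counted in the region. The window runs from 250 bases before to 50 bases after the gene start in RefSeq (GRCm38.p6, chr12:109540746-109541045, plus strand), and the capitals mark a cAMP response element, TGACGTCA, a palindrome that begins 57 bases before the gene start.
Meg3 promoter: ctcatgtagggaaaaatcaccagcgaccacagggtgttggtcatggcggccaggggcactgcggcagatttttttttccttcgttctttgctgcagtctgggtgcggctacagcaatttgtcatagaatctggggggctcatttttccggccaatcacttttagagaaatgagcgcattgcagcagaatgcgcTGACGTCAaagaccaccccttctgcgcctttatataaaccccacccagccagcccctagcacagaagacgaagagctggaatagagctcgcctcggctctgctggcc
That motif occurs in 588 of 32851 promoter windows of this length (1.79%). A further RefSeq window of Meg3 (chr12:109545148-109545447, plus strand) has 0 matches to it. Which start these cells use was not tested. The Gli motif TGGGTGGTC, searched on both strands and found in 83 of the windows (0.253%), and the E-box CAGCTG, found in 5355 (16.3%), had no match in the windows of Dlk1, Meg3, Rian, Mirg or Dio3. These matches describe letters in a window, and binding was not measured.

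The RefSeq tables place 58 microRNA hairpins with 114 mature sequences between Dlk1 and Dio3, with 14 hairpins inside Mirg, 7 opposite Rtl1, 3 inside Rian and 1 inside Meg3. Poly(A)-primed 3′ libraries do not count mature microRNAs. The sequences below are therefore shown only as what lies inside or opposite the counted genes, with the seed (bases 2 to 8) in capitals. The first pair shares a seed, 1 of 9 seeds that more than 1 mature microRNA of the interval has, and lies in Mirg.
miR-453 (Mirg): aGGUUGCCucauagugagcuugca
miR-496a-5p (Mirg): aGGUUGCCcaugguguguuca
miR-410-3p (Mirg): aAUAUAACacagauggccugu
miR-134-5p (Mirg): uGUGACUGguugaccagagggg
miR-770-5p (Meg3): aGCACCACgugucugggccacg
miR-127-3p (opposite Rtl1): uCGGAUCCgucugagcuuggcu
miR-433-3p (opposite Rtl1): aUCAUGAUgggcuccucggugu
miR-431-5p (opposite Rtl1): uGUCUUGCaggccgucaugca

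After filtering, 4581 B10, 6313 mdx, 3279 DBA and 5756 D2-mdx cells remained, with 37016795 to 52742197 UMIs per library and medians of 6666 to 10434 UMIs per cell. Clusters were named from fixed markers. MuSC-like cells numbered 4063, 3131, 2488 and 2860 in B10, mdx, DBA and D2-mdx, and their level of Pax7, the transcription factor that marks satellite cells, was 931, 560, 726 and 625 counts per 1000000 UMIs (CPM). Besides 5 MuSC-like clusters the myogenic cells held cycling progenitor-like cells, interferon-marked immunomyoblast-like cells and a cluster led by Actc1, Myog and Cdkn1c. That cluster scored alike for differentiating myocytes and for the Postn- and Col1a1-marked cells enriched in dystrophic muscle, and is called the Actc1/Myog cluster. Between 3 and 8 cell barcodes were shared by any pair of libraries. The cluster names were rebuilt here, and genes from Dlk1 to Dio3 were kept out of the clustering.

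Meg3 was lower in the dystrophic libraries than in the healthy library of the same background. In all myogenic cells its level was 4225 CPM in B10, 781 CPM in mdx, 2172 CPM in DBA and 272 CPM in D2-mdx, from 168545, 31537, 65447 and 9502 UMIs. The order of the levels was B10, DBA, mdx, D2-mdx, with no overlap of counting intervals between neighbours. Meg3 was 5.41-fold lower in mdx than in B10, a log2 ratio of -2.44 (-2.45 to -2.42), and 7.98-fold lower in D2-mdx than in DBA, a log2 ratio of -3.00 (-3.03 to -2.96). In these comparisons 5.19% of 8477 genes that reached 10 CPM in either library were at least 2-fold lower in mdx, and 5.81% of 8503 genes in D2-mdx. Only 58 genes of 8477 had a lower ratio than Meg3 in mdx, and 34 of 8503 in D2-mdx. The genes were chosen with earlier results of these data known, so such ranks are descriptions.

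The 2 backgrounds also differed. Meg3 was 1.94-fold lower in DBA than in B10 (log2 ratio -0.96, interval -0.97 to -0.95), just short of 2-fold, and 2.87-fold lower in D2-mdx than in mdx (log2 ratio -1.52, -1.55 to -1.49). These comparisons share libraries with the first pair. The background was smaller here, with 1.79% of 8344 genes at least 2-fold lower in DBA than in B10 and 1.53% of 8178 genes in D2-mdx than in mdx. At least 2-fold higher were 1.76% and 1.99% of the genes in these comparisons.

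MuSC-like cells were 3131 of 4818 myogenic cells in mdx and 2860 of 4182 in D2-mdx, against 4063 of 4418 in B10 and 2488 of 2700 in DBA, so the ratio was taken again within them. In MuSC-like cells Meg3 stood at 4297 CPM in B10, 1093 CPM in mdx, 2251 CPM in DBA and 431 CPM in D2-mdx. It was 3.93-fold lower in mdx than in B10 (log2 ratio -1.97, interval -2.00 to -1.95) and 5.22-fold lower in D2-mdx than in DBA (log2 ratio -2.38, -2.42 to -2.35). In a library, fewer cells that express a gene and less RNA per cell cannot be told apart from such sums, which is why single cells are given further on. Over the same cells Malat1, another abundant nuclear noncoding RNA, was at 50140, 51853, 54497 and 50218 CPM in B10, mdx, DBA and D2-mdx. Other measures moved with the groups. The 6 white blood cell markers summed to 1.17, 21.8, 5.55 and 87.1 CPM in the MuSC-like cells of B10, mdx, DBA and D2-mdx, and 7 genes fixed as signs of free RNA to 47.4, 770, 336 and 1419 CPM. The median number of UMIs per MuSC-like cell was 8249, 5599, 10151 and 5582.5 in the same order. Their part in the Meg3 ratios was not tested.

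**Figure D1:**
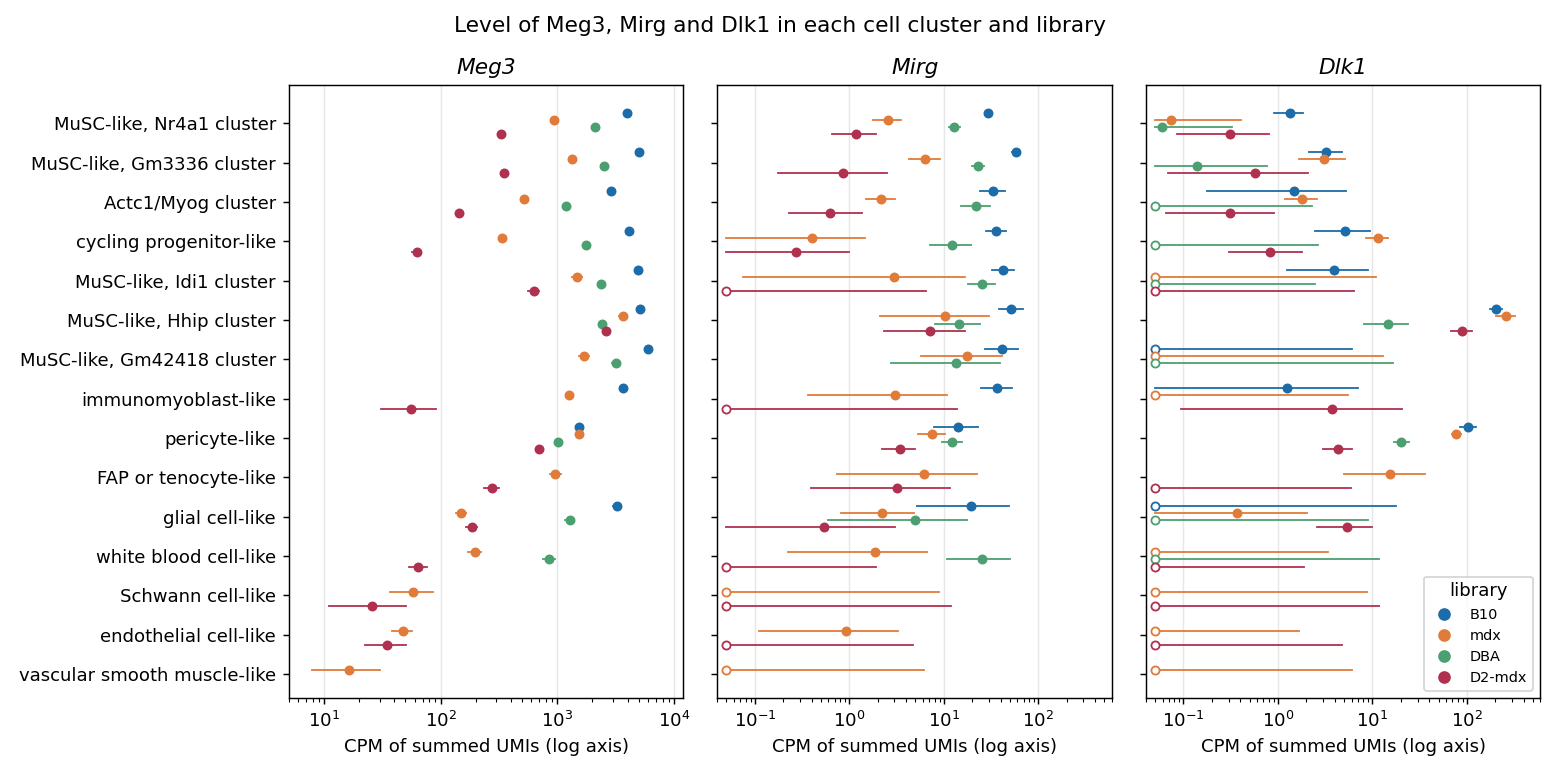
Level of Meg3, Mirg and Dlk1 (CPM of summed UMIs, log axes) in each cluster of at least 20 cells, coloured by library, with 95% Poisson intervals as bars and open points for 0 UMIs drawn at the left edge. Meg3 spans 62.3 to 4087 CPM in cycling progenitor-like cells but 2392 to 5122 CPM in the Hhip cluster, and Dlk1 is above 10 CPM in all 4 libraries only in the Hhip cluster.

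Across the myogenic states the gap between healthy and dystrophic libraries was not of one size. At this clustering it was widest in the cycling progenitor-like cells, marked by Pbk and Aurkb and numbering 148 in B10 and 416 in mdx, and 94 in DBA and 504 in D2-mdx, where Meg3 was at 4087 CPM in B10, 337 CPM in mdx, 1774 CPM in DBA and 62.3 CPM in D2-mdx. The B10 level in that cluster was close to that of the B10 MuSC-like cells, and the D2-mdx level was far under that of the D2-mdx MuSC-like cells. The B10 number of this class depended on the processing, with 17 cells when predicted doublets were kept, 30 from 500 genes per cell, 39 at up to 5% mitochondrial UMIs and 12 without integration. The log2 ratios were -3.60 (-3.68 to -3.52) between mdx and B10 and -4.83 (-4.98 to -4.69) between D2-mdx and DBA. Pax7 followed the same order in these cells, at 672, 202, 416 and 113 CPM in B10, mdx, DBA and D2-mdx. In the Actc1/Myog cluster Meg3 was at 2895 CPM in B10, 518 CPM in mdx, 1180 CPM in DBA and 145 CPM in D2-mdx, with log2 ratios of -2.48 and -3.03.

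At a finer clustering the cycling progenitor-like and the Actc1/Myog cells came apart. Only 4 B10 cells fell in the finer cycling cluster led by Hist1h3c and Hmmr, against 161 mdx, 24 DBA and 327 D2-mdx cells, and 90 B10 cells fell in one led by Esm1 and Fosl1. The marker score for cycling progenitors was 0.029 in the Esm1/Fosl1 cluster and 2.98 in the Hist1h3c/Hmmr cluster. The coarser cycling class thus differed in make-up between libraries, and its ratios do not hold that equal. In the Esm1/Fosl1 cluster Meg3 had log2 ratios of -3.01 between mdx and B10 and -4.47 between D2-mdx and DBA. Cells led by Actc1, Myog and Mylk4, named differentiating myocyte-like, held Meg3 at 2837 CPM in B10, 125 CPM in mdx, 966 CPM in DBA and 95.6 CPM in D2-mdx, from 37, 233, 47 and 208 cells. Their log2 ratio between mdx and B10 was -4.51 (-4.67 to -4.35), wider than in the cycling cells, and that between D2-mdx and DBA was -3.34, so on the mild background the widest gap depended on the clustering. Cells led by Postn, named DMD-enriched-like, held it at 1768, 646, 1111 and 176 CPM in the same order, from only 34 cells in B10 and 36 in DBA. In mdx, DBA and D2-mdx the level was thus higher in the Postn-led cells than in the differentiating ones. In B10 it was lower, from 34 and 37 cells.

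The MuSC-like clusters differed as well. In the largest, led by the immediate early genes Nr4a1 and Btg2, Meg3 was at 3965, 933, 2107 and 330 CPM in B10, mdx, DBA and D2-mdx, and the log2 ratios were -2.09 between mdx and B10 and -2.67 between D2-mdx and DBA. In the cluster led by Gm3336 and Neu1 it was at 4999, 1346, 2518 and 350 CPM, and in the cluster led by the sterol synthesis genes Idi1 and Msmo1 at 4941, 1475, 2367 and 625 CPM. A cluster of 110 B10, 69 mdx and 21 DBA cells led by Gm42418 and Lars2, which often collect ribosomal RNA reads, had 6023, 1691 and 3181 CPM. All 4 clusters kept Meg3 lower in the dystrophic library where both libraries of a background had at least 20 cells.

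The exception was a small MuSC-like cluster with Hhip, Dlk1, Car3 and Gli1 among its leading genes, which include targets of Hedgehog signalling. It did not form when the libraries were clustered without integration. Its cells numbered 94 in B10 and 41 in mdx, and 92 in DBA and 115 in D2-mdx. Meg3 was at 5122 CPM in B10, 3619 CPM in mdx, 2392 CPM in DBA and 2591 CPM in D2-mdx. The dystrophic and healthy levels were thus close: the log2 ratio was -0.50 (-0.60 to -0.41) between mdx and B10 and 0.12 (0.03 to 0.20) between D2-mdx and DBA. In the other MuSC-like clusters with both libraries those ratios ran from -2.09 to -1.74 and from -2.85 to -1.92. Pax7 in the Hhip cluster was at 905, 597, 820 and 629 CPM, near its level in all MuSC-like cells of each library. The cluster was formed without the genes of this region, but from the same cells, so its levels are a description.

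**Figure D2:**
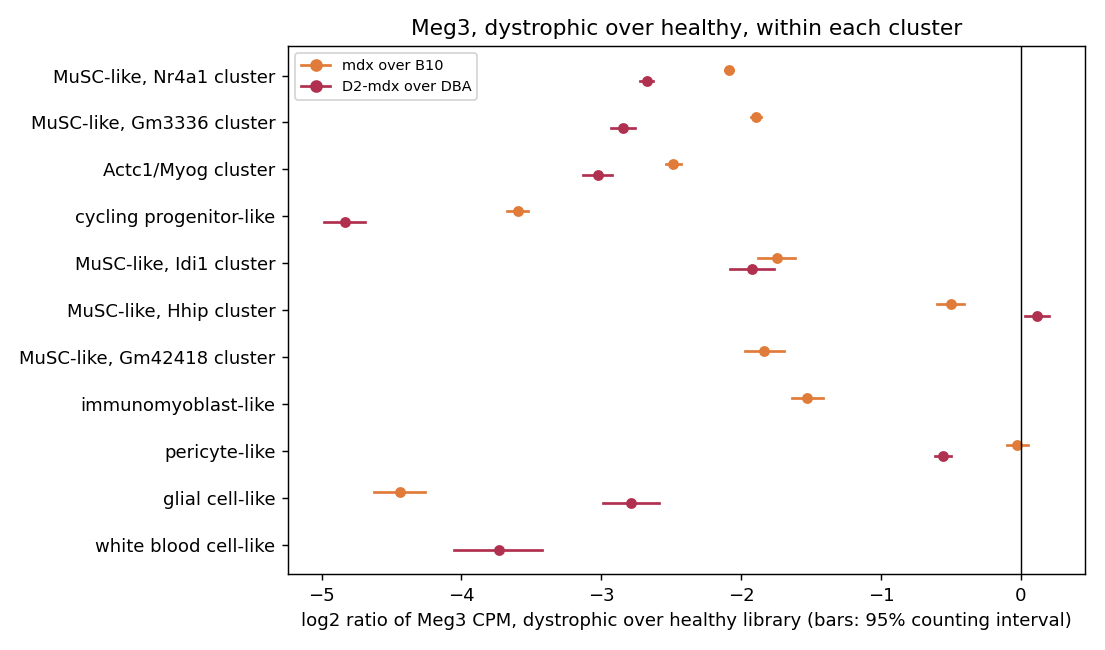
Log2 ratio of Meg3 CPM, dystrophic over healthy library, within each cluster that had at least 20 cells in both libraries, with 95% counting intervals as bars. Among myogenic clusters the ratios run from -3.60 in cycling progenitor-like cells to -0.50 in the Hhip cluster on the mild background. On the severe one they run from -4.83 to 0.12. Pericyte-like cells sit at -0.02 and -0.56. Meg3 is also lower in the dystrophic library in glial-like cells on both backgrounds, and in the white blood cell-like group on the severe one. The part of satellite cell RNA in those values was not tested.

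In single MuSC-like cells brought to 3000 UMIs each, the dystrophic libraries held many cells with no Meg3 UMI. The median cell had 11 Meg3 UMIs in B10 and 0 in mdx, and 5 in DBA and 0 in D2-mdx, and the means were 12.95, 3.28, 6.78 and 1.30 (SD over cells 9.89, 6.14, 6.24 and 3.51). Cells with no Meg3 UMI made up 3.1% in B10 and 53.8% in mdx, and 8.72% in DBA and 72.0% in D2-mdx. Cells above 10 UMIs made up 52.9%, 10.0%, 19.1% and 2.90%. The mdx library therefore held both cells at 0 and cells in the range of the B10 library, with a variance 11.5 times the mean against 7.55 times in B10.

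As a share of cells with at least 1 Meg3 UMI this was 96.9%, 46.2%, 91.3% and 28.0% in B10, mdx, DBA and D2-mdx at equal depth, and 98.3%, 51.4%, 96.3% and 33.0% before thinning. Free RNA in the droplets can add to such shares. In endothelial-like cells, a type with a low Meg3 level here, 6.35% of 252 mdx cells and 6.74% of 89 D2-mdx cells had a Meg3 UMI. Before thinning their median depths were 7481 and 7687 UMIs, and they held 104 and 27 Meg3 UMIs in all. Whether these UMIs were free RNA was not tested, so the shares set no floor. In the healthy libraries 5 of 12 and 3 of 9 endothelial-like cells had a Meg3 UMI, too few for a comparison. In the Hhip cluster the median was 13 UMIs in B10 and 8 in mdx, and 6 in DBA and 5 in D2-mdx, so in the dystrophic libraries its median cell had Meg3 UMIs where the median MuSC-like cell had none.

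**Figure D3:**
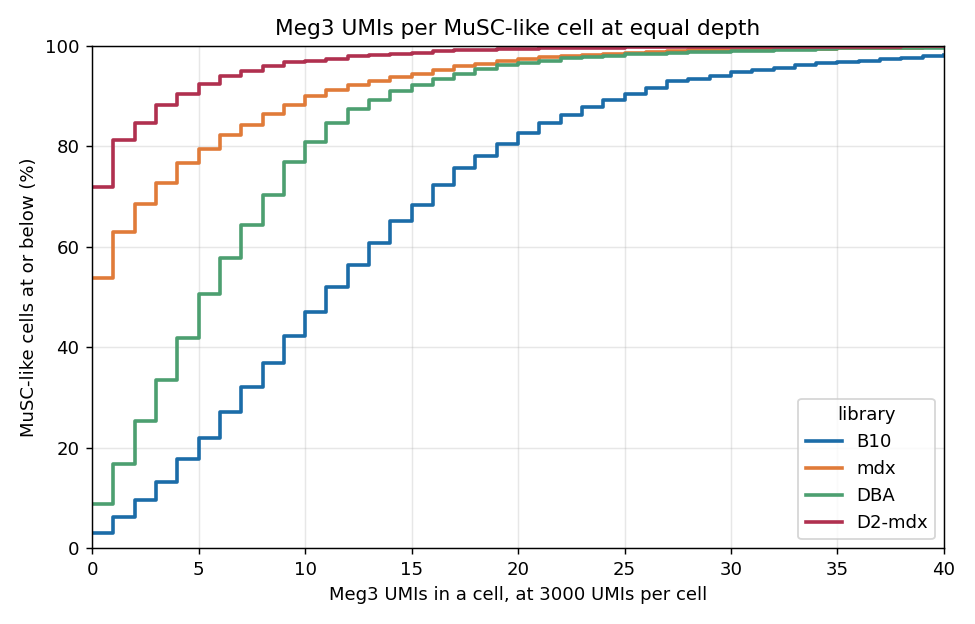
Percentage of MuSC-like cells (vertical axis) with at most the number of Meg3 UMIs on the horizontal axis, each cell thinned to 3000 UMIs, 1 line per library. The lines start at 3.1% of cells at 0 UMIs in B10, 8.72% in DBA, 53.8% in mdx and 72.0% in D2-mdx, and keep that order.

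Mirg, the distal microRNA host, was lower in the dystrophic libraries by more than Meg3. In all myogenic cells its level was 36.8 CPM in B10, 2.75 CPM in mdx, 16.5 CPM in DBA and 0.888 CPM in D2-mdx, from 1468, 111, 497 and 31 UMIs. The log2 ratio was -3.74 (-4.03 to -3.46) between mdx and B10 and -4.21 (-4.79 to -3.69) between D2-mdx and DBA. Only 14 of 8477 genes and 8 of 8503 genes had a lower ratio. Between backgrounds Mirg was 2.23-fold lower in DBA than in B10 and 3.1-fold lower in D2-mdx than in mdx. In MuSC-like cells its level was 37.0, 3.81, 16.3 and 1.30 CPM in B10, mdx, DBA and D2-mdx, with log2 ratios of -3.28 (-3.64 to -2.94) and -3.66 (-4.33 to -3.05) within the mild and the severe background.

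Among the MuSC-like clusters Mirg was one of the 10 leading genes of the Gm3336/Neu1 cluster, 2.4-fold over the other myogenic cells. There it stood at 58.0 CPM in B10, 6.35 CPM in mdx and 23.0 CPM in DBA, and at 0.859 CPM from 3 UMIs in D2-mdx. The Nr4a1 cluster was lower in 3 libraries, at 29.3 CPM in B10, 2.55 CPM in mdx and 12.9 CPM in DBA, and stood at 1.16 CPM in D2-mdx. In DBA the sterol synthesis cluster was close to the Gm3336/Neu1 cluster, at 25.4 CPM from 38 UMIs. In the Hhip cluster Mirg rested on 51, 3, 15 and 5 UMIs. Its log2 ratio there was -2.34 (-4.67 to -0.71) for mdx over B10. For D2-mdx over DBA it had an interval on both sides of 0 (log2 -1.01, -2.83 to 0.52).

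The noncoding gene B830012L14Rik, between Rian and Mirg, followed the same pattern. In all myogenic cells it was at 26.4 CPM in B10, 2.80 CPM in mdx, 11.9 CPM in DBA and 1.20 CPM in D2-mdx, from 1053, 113, 357 and 42 UMIs. Its log2 ratio was -3.24 (-3.53 to -2.96) between mdx and B10 and -3.30 (-3.80 to -2.84) between D2-mdx and DBA, with 25 of 8477 and 23 of 8503 genes lower. In the Hhip cluster it was not lower in D2-mdx, at 17.3 CPM from 12 UMIs against 15.5 CPM from 16 UMIs in DBA. There it was at 27.5 CPM from 27 UMIs in B10 and 13.6 CPM from 4 UMIs in mdx. Over all myogenic cells the counts of Gm26945 inside the Rian interval were lower too, with 207 UMIs in B10 and 45 in mdx, and 76 in DBA and 8 in D2-mdx (log2 ratios of CPM -2.22 and -3.46). Gm26906, antisense to Meg3, had 378, 60, 168 and 10 UMIs in B10, mdx, DBA and D2-mdx (log2 ratios -2.67 and -4.28).

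Rtl1 was read at the edge of detection. Its UMIs in myogenic cells numbered 113 in B10 and 6 in mdx, and 34 in DBA and 3 in D2-mdx, and the log2 ratio was -4.25 (-5.73 to -3.09) for mdx against B10. As a paternally expressed gene on the minus strand it went the same way as the maternally expressed transcripts around it. The plus-strand microRNA precursor transcripts overlap it, so without stated strand use its UMIs cannot be told apart from theirs. Dio3 had 2, 0, 2 and 3 UMIs in B10, mdx, DBA and D2-mdx and was not detectable at this depth beyond that.

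**Figure D4:**
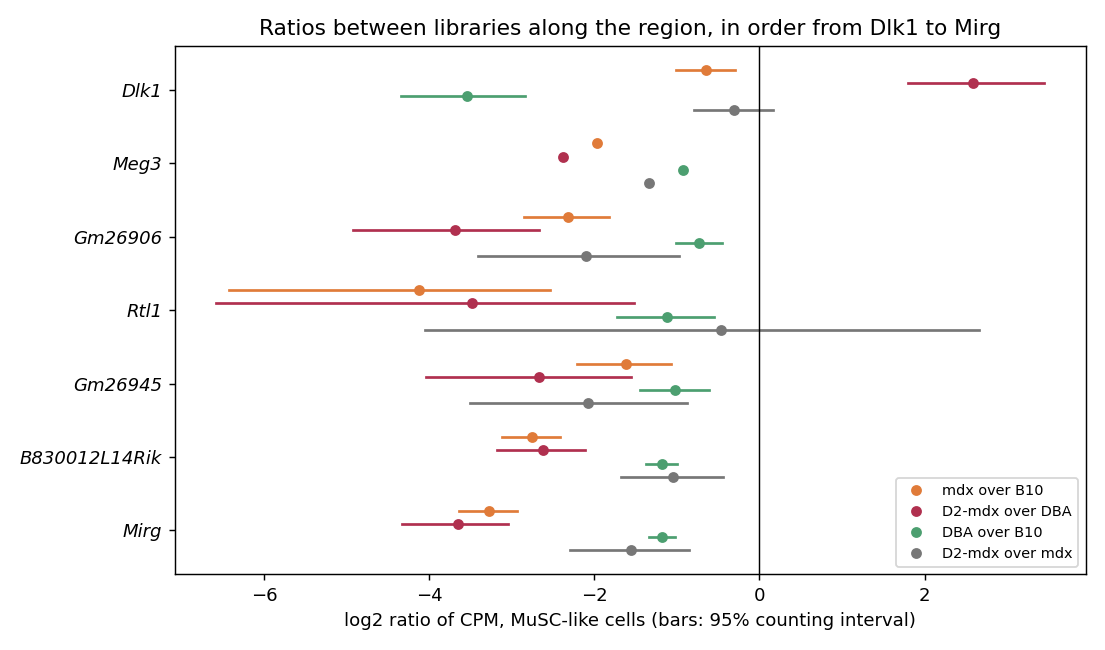
Log2 ratios of CPM in MuSC-like cells for 7 counted genes in their order along the chromosome from Dlk1 to Mirg, coloured by comparison, with 95% counting intervals as bars. From Meg3 to Mirg the ratios of mdx to B10 and of D2-mdx to DBA lie at -1.62 or lower, whereas Dlk1 lies at -0.65 and 2.59.

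The transcripts of the region did not keep one proportion to Meg3. Per 1000 Meg3 UMIs, MuSC-like cells of B10 held 8.61 Mirg UMIs (interval 8.15 to 9.09) and those of mdx 3.48 (2.73 to 4.38). Those of DBA held 7.26 (6.60 to 7.98) and those of D2-mdx 3.01 (1.91 to 4.52). The intervals of the healthy libraries did not overlap those of the dystrophic ones. B830012L14Rik stood at 6.24, 3.62, 5.24 and 4.45 per 1000 Meg3 UMIs in B10, mdx, DBA and D2-mdx. Its D2-mdx value rested on 34 UMIs, 12 of them in the Hhip cluster, and no separation from DBA is claimed for it. Gm26945 stood at 1.19, 1.53, 1.12 and 0.915 in the same order, with the healthy libraries not set apart from the dystrophic ones.

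Joint detection was read in MuSC-like cells at 3000 UMIs, of which 4029 in B10 and 3131 in mdx, and 2488 in DBA and 2860 in D2-mdx reached that depth. Mirg gave a UMI in 420, 37, 113 and 9 of them, or 10.4%, 1.18%, 4.54% and 0.315%. Of these cells 418, 35, 113 and 8 also had a Meg3 UMI. The product of the separate shares would give 407, 17.1, 103 and 2.52 cells. In the healthy libraries nearly every cell had Meg3, which leaves little room above the product. In mdx, where 46.2% of cells had Meg3, the observed number was 2.05 times the product (1.43 to 2.84), and in D2-mdx it was 3.17 times (1.37 to 6.24). Such a ratio cannot pass 1 divided by the share of cells with Meg3, and both upper limits run past that ceiling. The ceiling is higher in D2-mdx, where 72.0% of cells had no Meg3 UMI, so the mdx and D2-mdx ratios are not compared.

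Mirg and B830012L14Rik, neither of which was in most cells, were found together more often than the product of their shares. In B10 61 cells held both against 29.7 from the product, a ratio of 2.05 (1.57 to 2.63). In DBA 10 cells held both against 4.0, a ratio of 2.50 (1.20 to 4.59). In mdx 3 cells held both against 0.378, and in D2-mdx 0 cells of 2860. All 61, 3 and 10 of these cells had Meg3 as well. With noncoding RNAs from other chromosomes, the ratio of Mirg in B10 was 1.07 (0.923 to 1.24) with Kcnq1ot1 and 1.07 (0.957 to 1.18) with Neat1. Neat1 was in most of these cells, which leaves little room above the product, so its ratio is not a like comparison. The triple with Rian itself was not analysed here.

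The share of cells with Mirg was larger among cells with more Meg3 UMIs in B10, mdx and DBA. In B10 it was 1.60% of 125 cells with 0 Meg3 UMIs, 4.92% of 264 cells with 1 to 2, 5.69% of 492 cells with 3 to 5, 7.28% of 1016 cells with 6 to 10 and 14.2% of 2132 cells above 10. In mdx the same classes gave 0.119%, 0.868%, 1.16%, 2.75% and 5.73%, the last of 314 cells. In DBA they gave 0%, 1.20%, 4.15%, 4.64% and 9.89%, the first of 217 cells. In D2-mdx the share was 0.0486% of 2058 cells at 0 Meg3 UMIs and 2.41% above 10. So few D2-mdx cells had Mirg that no graded rise is claimed there. Within the class above 10 Meg3 UMIs the libraries still differed, 14.2% in B10 against 5.73% in mdx. The mean Meg3 UMIs of that open class were not held equal. Neat1, read the same way, was in 76.8% of B10 cells with 0 Meg3 UMIs and 73.9% above 10.

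**Figure D5:**
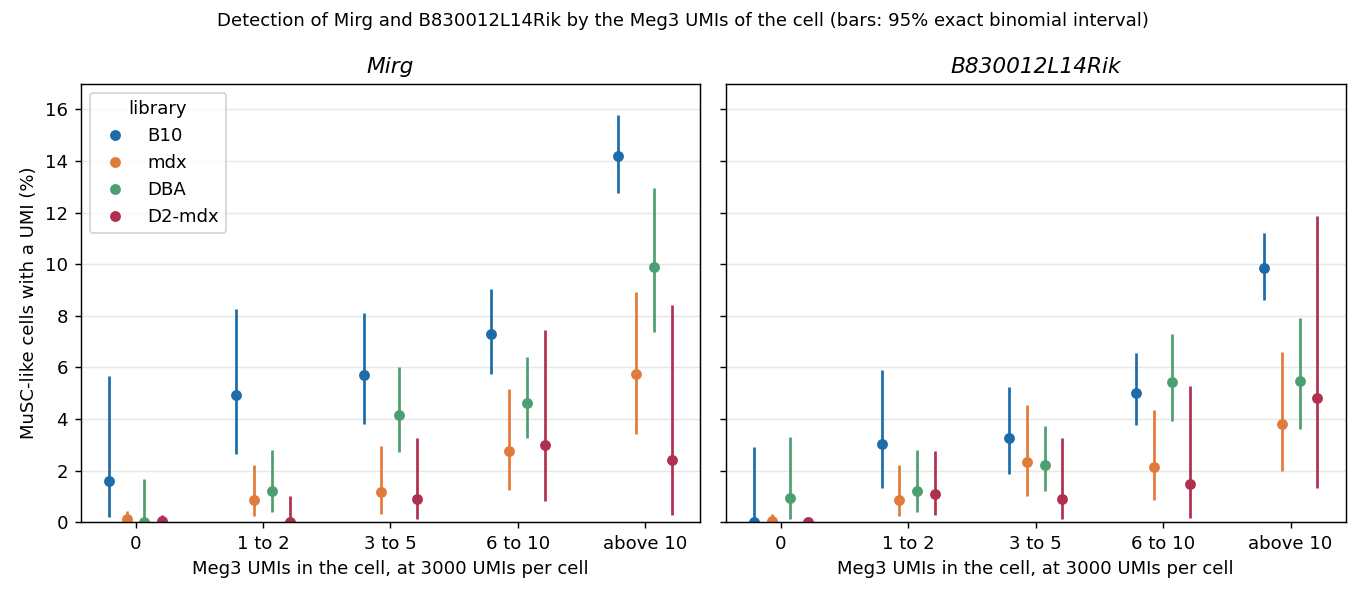
Share of MuSC-like cells with a UMI of Mirg (left) and B830012L14Rik (right) against the Meg3 UMIs of the same cell in 5 classes, each cell thinned to 3000 UMIs, with 95% exact binomial intervals as bars and colours for libraries. Mirg climbs from 1.60% to 14.2% of cells in B10 and from 0.119% to 5.73% in mdx.

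Dlk1, the paternally expressed gene at the proximal end, did not follow the noncoding genes. In all myogenic cells it was at 6.92 CPM in B10, 4.31 CPM in mdx, 0.564 CPM in DBA and 2.21 CPM in D2-mdx, from 276, 174, 17 and 77 UMIs. It was lower in mdx than in B10, with a log2 ratio of -0.68 (-0.96 to -0.40), and higher in D2-mdx than in DBA, with a log2 ratio of 1.97 (1.20 to 2.82). Over all sorted cells, pericyte-like cells included, both directions turned, with log2 ratios of 0.22 and -0.51. The DBA library was the low one: Dlk1 was 12.3-fold lower there than in B10. At these levels Dlk1 was under the minimum of 10 CPM and outside the gene counts given above.

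Most Dlk1 UMIs came from small groups of cells, the Hhip cluster and the pericyte-like cells. The Hhip cluster held 51.6% of the 386 Dlk1 UMIs of the B10 library, 13.2% of 570 in mdx, 11.5% of 131 in DBA and 50.8% of 120 in D2-mdx. Pericyte-like cells held 28.5%, 68.4%, 87.0% and 27.5% of them. In the Hhip cluster Dlk1 was at 202 CPM in B10, 256 CPM in mdx, 14.5 CPM in DBA and 87.8 CPM in D2-mdx, from 199, 75, 15 and 61 UMIs. Over the other MuSC-like cells of the same library this was higher by 6.78, 8.33, 7.56 and 7.96 on the log2 scale. Those cells held few Dlk1 UMIs. In DBA there was 1 in the Nr4a1 cluster and 1 in the Gm3336/Neu1 cluster. In D2-mdx these clusters held 4 and 2, in mdx 1 and 14, and in B10 33 and 26. Dlk1 is 1 of the leading genes of the Hhip cluster, so the difference describes that cluster. Single cells weighed heavily there, with 44 of the 75 UMIs of mdx, 8 of the 15 of DBA and 38 of the 199 of B10 in 1 cell each. In D2-mdx the top cell held 7 of 61. The counting intervals take UMIs as independent and do not cover this. In the cycling progenitor-like cells of mdx 1 cell held 32 of 56 Dlk1 UMIs.

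Between libraries, Dlk1 in the Hhip cluster had a log2 ratio of 0.34 (-0.07 to 0.73) for mdx over B10, an interval on both sides of 0, and of 2.59 (1.76 to 3.52) for D2-mdx over DBA. DBA was lower than B10 by a log2 ratio of -3.80. In the pericyte-like cells, marked by Rgs5, Kcnj8 and Colec11, Dlk1 was at 103 CPM in B10, 77.4 CPM in mdx, 20.2 CPM in DBA and 4.33 CPM in D2-mdx, from 110, 390, 114 and 33 UMIs. There it was lower in D2-mdx than in DBA, with a log2 ratio of -2.22 (-2.83 to -1.65), the opposite direction to the Hhip cluster. The DBA levels were below the B10 levels in both cell groups.

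In the Hhip cluster the cells with a Dlk1 UMI also had Meg3, which did not hold for every other group of cells. In that cluster at 3000 UMIs, Meg3 was found in 15 of 15 B10, 5 of 5 mdx, 2 of 2 DBA and 18 of 18 D2-mdx cells with a Dlk1 UMI. Among cells of the cluster without one it was found in 96.2%, 80.6%, 88.9% and 68.0%. Hhip itself was found in 13.3%, 0%, 0% and 5.56% of the cells with a Dlk1 UMI, in the same order. Without a Dlk1 UMI, Hhip was found in 31.6%, 19.4%, 25.6% and 15.5%. Most cells with a Dlk1 UMI thus had no Hhip UMI at this depth. Hhip and Dlk1 are not claimed to mark the same cells of the cluster. The mean number of Meg3 UMIs was 35.5 with and 12.9 without a Dlk1 UMI in B10, 29.2 and 10.9 in mdx, 26.5 and 7.19 in DBA, and 16.3 and 6.26 in D2-mdx. In pericyte-like cells the mean was higher with a Dlk1 UMI in each library too, 7.91 against 4.02 in B10, 7.18 against 4.30 in mdx, 4.86 against 3.0 in DBA and 3.18 against 2.14 in D2-mdx. Meg3 was found in 11 of 11 B10, 76 of 82 mdx, 13 of 14 DBA and 7 of 11 D2-mdx pericyte-like cells with a Dlk1 UMI. The intervals of these shares were 71.5% to 100%, 84.8% to 97.3%, 66.1% to 99.8% and 30.8% to 89.1%. Among pericyte-like cells without a Dlk1 UMI the shares were 77.6%, 81.1%, 84.2% and 72.4%. Only the mdx interval left out the share without one, so no direction is claimed for the other libraries. Among MuSC-like cells outside the Hhip cluster, Meg3 was found in 16 of 16 B10, 1 of 3 mdx and 0 of 1 D2-mdx cells with a Dlk1 UMI. Without one it was found in 96.9%, 45.7% and 26.2% of them. The 3 mdx cells and the 1 D2-mdx cell are too few for a comparison. The counts do not give the parental allele of any molecule.

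Among the other sorted cells, pericyte-like cells held Meg3 at 1548 CPM in B10, 1523 CPM in mdx, 1015 CPM in DBA and 690 CPM in D2-mdx. Between B10 and mdx the levels lay within counting error (log2 ratio -0.02, -0.10 to 0.05), and between DBA and D2-mdx the log2 ratio was -0.56 (-0.61 to -0.50). In mdx and D2-mdx the pericyte-like level was above that of the MuSC-like cells, and in B10 and DBA below it. Their Pax7 level was 46.7, 9.53, 25.6 and 14.7 CPM in B10, mdx, DBA and D2-mdx, far under that of MuSC-like cells. Mirg in pericyte-like cells was at 14.0, 7.54, 12.2 and 3.41 CPM, with log2 ratios of -0.89 (-1.79 to 0.07) and -1.84 (-2.55 to -1.17) in the mild and the severe background.

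Endothelial-like, Schwann-like and vascular smooth muscle-like cells had the lowest Meg3 levels where a library held at least 20 of them. Meg3 was at 47.4 CPM in the mdx and 34.4 CPM in the D2-mdx endothelial-like cells, 57.5 and 25.6 CPM in Schwann-like cells, and 16.6 CPM in mdx vascular smooth muscle-like cells. Fibro-adipogenic progenitor or tenocyte-like cells held 962 CPM in mdx and 275 CPM in D2-mdx. Glial-like cells read 3240 CPM in B10, 149 CPM in mdx, 1279 CPM in DBA and 185 CPM in D2-mdx, but Pax7 in the same cells was at 395, 94.6, 311 and 116 CPM. The part of satellite cell RNA in those Meg3 values was not tested. White blood cell-like cells showed 853 CPM in DBA, 196 CPM in mdx and 64.2 CPM in D2-mdx. Outside the myogenic cells the Meg3 level read was lower in the dystrophic library in the glial-like group on both backgrounds, as was Pax7. Meg3 was also lower in the white blood cell-like group on the severe one. The part of satellite cell RNA was not tested in that group either, so no change within these cell types is claimed. The healthy levels there came from only 23 B10 and 31 DBA glial-like cells and 23 DBA white blood cell-like cells.

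The genes whose level was most like that of Meg3 over 48 cluster and library points were Mirg (Pearson r 0.889), Svep1 (0.847), Zhx2 (0.845), Rora (0.835) and Gpx3 (0.828), among 7514 genes that reached 50 CPM in a point. Over the 30 points of myogenic clusters alone Mirg (0.891) came after Svep1 (0.926), Tob2 (0.906) and Angptl1 (0.901). Over all points B830012L14Rik, under that minimum, gave 0.871 with Meg3 and 0.919 with Mirg. Dlk1 was most like Rerg (0.671) and Csrp2 (0.633) over all points and most like Myl10 (0.879) and Csrp2 (0.874) over the myogenic ones, and gave 0.331 and 0.225 with Meg3. The points share their libraries and are not independent, so the values describe these data.

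Fixed lists of genes around and beyond the region were read beside it. Of all genes measured, 4.7% were past 2-fold higher and 5.19% lower in mdx than in B10, and 5.82% and 5.81% in D2-mdx than in DBA, so a list of this size would hold few or none at the share of all genes, and a count of 0 sets no list apart. Of 13 genes flanking the region on chromosome 12, 8 were measured between mdx and B10 and 8 between D2-mdx and DBA, and 0 were past 2-fold in either direction by these ratios, with medians of -0.22 and -0.33 on the log2 scale against -0.03 and -0.07 for all genes measured. No test lies behind these counts. Of 18 genes that keep imprints or act on the region, such as Trim28, Dnmt1 and Ctcf, 12 were measured in mdx over B10 and 0 were past 2-fold. In D2-mdx over DBA 13 were measured. Among them Uhrf1, which brings the maintenance methyltransferase to replicated DNA and is a leading gene of the cycling cells here, was higher (log2 ratio 2.34), and Tet1, a methylcytosine dioxygenase, was lower (-1.21). The 4 measured genes of microRNA processing had 0 past 2-fold and medians of -0.49 and -0.58, and the 3 nuclear noncoding RNAs Malat1, Neat1 and Kcnq1ot1 had 0 past 2-fold and medians of -0.20 and -0.47. Of the 7 MuSC markers, 1 was past 2-fold lower in mdx and none of them (0) in D2-mdx, and their medians were -0.74 and -0.70.

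Among the other imprinted genes that reached 10 CPM in either library, those past 2-fold in the dystrophic libraries were higher. Nnat, under that level in MuSC-like cells, was lower there in both dystrophic libraries and is given at the end. Of 16 listed, 14 were measured in mdx over B10, with 6 higher and 0 lower past 2-fold, where 4.7% of all genes were higher. They were Cdkn1c, a cyclin-dependent kinase inhibitor (log2 ratio 5.06), Plagl1, a zinc finger transcription factor of an imprinted gene network (2.18), the growth factor Igf2 (1.91), the noncoding RNA H19 (1.87), Peg10 (1.57) and Mest (1.14). In D2-mdx over DBA 14 were measured, with Cdkn1c (3.42), H19 (1.92) and Plagl1 (1.80) higher and 0 lower, where 5.82% of all genes were higher. The median log2 ratio of the measured genes of this list was 0.17 in mdx over B10 and -0.09 in D2-mdx over DBA. Cdkn1c and Mest are also among the fixed markers of DMD-enriched cells. The study reported both for that cluster in these data, so their rise was known beforehand. The Actc1/Myog cluster, which Cdkn1c leads, was larger in the dystrophic libraries, with 1194 mdx against 116 B10 cells and 787 D2-mdx against 109 DBA cells. Within MuSC-like cells alone Cdkn1c still had a log2 ratio of 2.41 of mdx to B10, with 107 CPM in mdx. Plagl1 stood at 128 CPM in mdx and 38.9 CPM in B10 (1.72), Igf2 at 182 and 52.8 CPM (1.78), and Mest at 129 and 142 CPM (-0.14). Peg3, a paternally expressed zinc finger gene abundant in these cells, was at 1335, 1535, 865 and 976 CPM in B10, mdx, DBA and D2-mdx.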

How the data were processed

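Sorted satellite cells of 4 strains were profiled with 10X Genomics 3′ chemistry, 1 library of 2 pooled mice per strain. The authors aligned reads to mm10 and made UMI counts per gene and barcode with Cell Ranger 3.0.1, per the labels, and deposited these counts without normalization. Whether counting used strand is not given in the sources used here. Positions came from GENCODE for GRCm38, and sequences from RefSeq tables of GRCm38.p6.

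Following the study's filters, barcodes were kept that had between 1000 and 5000 genes and a mitochondrial share of up to 8%, and the cells with the highest Scrublet scores (scanpy 1.11.5), an expected fraction of 0.008 per 1000 cells, were removed as doublets, which took 181 barcodes from the B10 library, 356 from mdx, 91 from DBA and 293 from D2-mdx. Libraries were integrated with Seurat 5.3.0 (2000 features, 30 dimensions) and clustered at resolution 0.1, and the myogenic cells at 0.2, with the genes from Dlk1 to Dio3 left out of the features. UMIs were summed per library and cluster of at least 20 cells and scaled to CPM. Poisson and binomial intervals were exact. Cells were thinned to 3000 UMIs for shares per cell, which left out 34 B10 MuSC-like cells and none in the other libraries. The intervals were tried on simulated Poisson counts, which hold no clumping of UMIs within cells or spread between mice.

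The genes named are the members, the counted genes of the region and those of the fixed lists (flanking, imprint upkeep, microRNA processing, nuclear noncoding, other imprinted, free RNA and cell type markers) past 2-fold or needed as controls, together with the leading genes of clusters and the genes most alike. Members and lists were chosen with earlier results of these data known. Alternatives changed the filters, doublets, scaling (edgeR 4.0.16 TMM sizes, DESeq2 1.42.0 size factors), features, integration, resolution, thinning and the cells compared.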

Additional observations from a re-analysis of the deposited data

Results flagged for a closer look

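Dlk1 differed in direction between the backgrounds. In all myogenic cells its log2 ratio was -0.68 for mdx against B10 and 1.97 for D2-mdx against DBA, and in MuSC-like cells -0.65 and 2.59, with no counting interval that reached 0. Over all sorted cells both directions turned, to 0.22 and -0.51. The DBA level in myogenic cells rested on 17 Dlk1 UMIs, with 15 in the Hhip cluster and 8 of those in 1 cell. The counting intervals do not cover such clumping. Meg3 in the Hhip cluster was singled out in the same way, with -0.50 for mdx against B10 and 0.12 for D2-mdx against DBA. Each direction rests on 1 library per strain, and the difference between the backgrounds was not tested.

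In 2 groups of B10 barcodes that the filters left out of the comparisons, Meg3 was above the level of the kept B10 cells, which was 4114 CPM. In B10 the 4739 barcodes under 1000 genes, with 2683638 UMIs in all, held Meg3 at 4739.1 CPM from 12718 UMIs and Mirg at 80.9 CPM from 217 UMIs. The 389 B10 barcodes over 8% mitochondrial UMIs held Meg3 at 6002.3 CPM. The 41 B10 barcodes over 5000 genes were lower, at 2685 CPM. Left-out barcodes of the other libraries held 805 CPM in mdx, 1505 CPM in DBA and 187 CPM in D2-mdx over 8% mitochondrial UMIs, 110 CPM, 1145 CPM and 43.1 CPM over 5000 genes, and at most 3 Meg3 UMIs under 1000 genes. The other libraries had only 11 to 21 barcodes under 1000 genes.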

How the results depend on the processing

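Of 156 values recomputed under other settings, 104 kept their direction and stayed within counting error, within the SD over libraries (values by cluster) or within 1.5 times (counts of genes), 50 moved and 2 reversed. No paired analysis was possible because each strain has 1 library, and for the same reason no library could be left out. Dlk1 reversed when all cells were summed, with log2 ratios of 0.22 for mdx against B10 and -0.51 for D2-mdx against DBA. Pericyte-like cells hold 68.4% and 87.0% of the Dlk1 UMIs of mdx and DBA. In MuSC-like cells without the Hhip cluster, an alternative chosen after seeing the data, Dlk1 had a log2 ratio of -1.21 for mdx against B10. Meg3 was lower in both dystrophic libraries under each setting. For mdx against B10 its log2 ratio was -2.38 with TMM sizes and -2.38 with DESeq2 size factors, -1.97 in MuSC-like cells and -2.02 in those without the Hhip cluster, -2.62 from 500 genes per cell with no upper limit, -2.40 at 5% mitochondrial UMIs and -2.23 as a mean of per-cell values. For D2-mdx against DBA the same settings gave -2.95, -2.92, -2.38, -2.71, -3.48, -2.96 and -2.68, and all cells gave -2.60. Mirg had -3.28 in MuSC-like cells and -3.30 without the Hhip cluster for mdx against B10, and -3.66 in MuSC-like cells and -3.65 in all cells for D2-mdx against DBA. In MuSC-like cells Meg3 had -0.93 for DBA against B10, and for D2-mdx against mdx Meg3 had -1.34 and Dlk1 -0.31. Counts of genes past 2-fold followed the minimum level. At 50 CPM and with no minimum, 125 and 2715 genes were higher and 161 and 2906 lower in mdx than in B10, 186 and 2985 higher and 194 and 2912 lower in D2-mdx than in DBA, 43 and 2145 higher and 40 and 1864 lower in DBA than in B10, and 38 and 2386 higher and 31 and 1786 lower in D2-mdx than in mdx. Without integration the log2 ratio of Meg3 in the Actc1/Myog or differentiating cells over the MuSC-like cells of the same library, averaged over libraries, was -2.32 in place of -1.04, and no Hhip cluster formed, so it has no value there. The share of MuSC-like cells with both Meg3 and Mirg followed the depth. In B10 it was 6.85% at 2000 UMIs, 15.5% at 5000 and 22.8% without thinning, in DBA 3.22%, 7.44% and 13.9%, in mdx 0.767% at 2000 and 1.95% without thinning, and in D2-mdx 0.765% at 5000 and 0.699% without thinning.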

Other observations

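Imprinted genes elsewhere in the genome also differed between the backgrounds in MuSC-like cells. Snrpn, which encodes a splicing protein, stood at 2.85 CPM in B10 and 3.44 CPM in mdx, and at 12.9 CPM in both DBA and D2-mdx, a log2 ratio of 2.18 for DBA against B10 (interval 1.86 to 2.52). Zim1, a zinc finger gene, stood at 100.0 and 127 CPM in B10 and mdx and at 46.0 and 60.1 CPM in DBA and D2-mdx, a log2 ratio of -1.12 for DBA against B10. H19 and Plagl1 were lower in DBA than in B10 too, with log2 ratios of -1.20 and -1.22. Nnat, a small membrane protein gene read at the edge of detection, had log2 ratios of -2.74 for mdx against B10 and -2.84 for D2-mdx against DBA, with no level above 4.44 CPM. No test lies behind these values, and in all myogenic cells 1 of the 14 measured genes of this list was past 2-fold higher and 3 lower in DBA than in B10, where 1.76% of all 8344 genes were higher and 1.79% lower.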
